A study of Homo sapiens with 21 samples.

Results

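Accessible chromatin around 58 axon guidance genes was followed in SK-N-BE(2) cells, an established human neuroblastoma line, after silencing of ARID1A, ARID1B or both. The genes were the ligands and receptors of the Eph and ephrin, Slit and Robo, netrin, and semaphorin systems. A site was included when the deposited annotation named one of these genes as its nearest gene. The rule gave 2390 of 367900 consensus sites, between 1 and 270 sites per gene with a median of 17.5. Of these, 2305 passed a filter on low counts and were tested, and 85 did not pass. Nearness does not show that a site acts on the gene whose name it carries.

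Every culture had been transduced with lentiviral shRNA and was taken 72 h later for ATAC-seq, in which the Tn5 transposase cuts and tags open DNA, so that reads accumulate over accessible sites. The 7 groups had 3 libraries each. They were the non-silencing Control, shARID1A.2 and shARID1A.4 against ARID1A, shARID1B.2 and shARID1B.3 against ARID1B, and shARID1A/B.2.3 and shARID1A/B.4.2 against both genes. All groups share 1 cell line, 1 time point and a lentiviral vector, and a knockdown leaves part of the target in place. An shRNA acts on messenger RNA, so accessibility gives no check of the knockdown itself.

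ARID1A and ARID1B are alternative subunits of the BAF complex, a remodeller that moves nucleosomes and keeps enhancers open. Axon guidance works through pairs of cues and receptors on the growing axon. Ephrins are tethered to the surface of one cell and bind Eph receptor tyrosine kinases on another. Slits are secreted and repel axons that carry Robo receptors. Secreted netrins such as NTN1 attract through DCC and repel through UNC5 receptors. Class 3 semaphorins are secreted, and most of them bind neuropilins. Neuropilins lack a signalling domain of their own and pass the signal on through plexins. The other semaphorins used here sit in the membrane. Neuroblastoma arises from the sympathoadrenal lineage of the neural crest, whose migrating cells are steered by the same cues.

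Libraries held 16140029 to 44472230 reads in sites, and replicates differed by more than sampling noise, with a chi-square per degree of freedom of 1.084 to 2.508. The share of reads that fell in promoter sites was 20.0% to 20.6% in Control libraries and 23.5% to 25.1% in the combinations, and the share in the 2390 sites was 0.542% to 0.552% and 0.474% to 0.507%. Of 10 adrenergic neuroblastoma markers, 7 had a tested site within 1000 bases of the start site, at 2.43 to 43.9 CPM (counts scaled to a common library size) in Control. The same held for 6 of 10 mesenchymal markers at 0.778 to 41.2 CPM, 4 of 6 epithelial markers at 2.75 to 13.5 CPM and none of 5 blood cell markers. Summed over those sites, the adrenergic markers held 119.5 to 136.7 CPM in Control libraries and 118.8 to 154.9 CPM in combination libraries, the mesenchymal markers 143.4 to 147.4 and 144.3 to 160.2 CPM, and the epithelial markers 22.4 to 27.5 and 24.2 to 36.4 CPM. The part of these differences in the results below was not tested.

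Most of the sites that moved lay in introns or between genes, and 6 of them show what such a site looks like. Each line gives the central 300 bases of one site on the plus strand of GRCh38, chosen because the site carries one of the results described below. Capitals mark matches, on either strand, to the short motifs that were searched, namely TGANTCA for AP-1, AGATAA for GATA factors, TAATTA for homeodomains, GGAATG for TEAD factors, CAGCTG as one E-box and CAGATG as the other E-box, the GC box GGGCGG and the CTCF core CCACNAGG. The NRP2 window (chr2:205746691-205746990) comes from the site with the largest named fall and holds none of them. The SEMA3D window (chr7:85125555-85125854), the SLIT1 window (chr10:97178073-97178372) and the SEMA5B window (chr3:122974835-122975134) come from sites that fell after combined silencing. The PLXNA2 window (chr1:208500537-208500836) comes from a site at which ARID1A and ARID1B silencing differed, and the EPHB2 window (chr1:22711088-22711387) from a site that rose.
NRP2: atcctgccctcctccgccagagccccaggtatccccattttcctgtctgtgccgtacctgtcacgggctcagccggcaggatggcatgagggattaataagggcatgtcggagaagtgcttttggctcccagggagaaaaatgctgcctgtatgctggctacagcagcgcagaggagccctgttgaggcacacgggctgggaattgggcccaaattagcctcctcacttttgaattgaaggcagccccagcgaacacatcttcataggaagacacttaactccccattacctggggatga
SEMA3D: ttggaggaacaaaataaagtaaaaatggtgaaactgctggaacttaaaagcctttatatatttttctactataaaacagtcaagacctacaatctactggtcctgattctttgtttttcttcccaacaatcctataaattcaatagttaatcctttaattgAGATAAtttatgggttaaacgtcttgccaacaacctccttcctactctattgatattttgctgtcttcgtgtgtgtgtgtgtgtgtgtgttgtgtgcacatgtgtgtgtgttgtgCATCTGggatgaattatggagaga
SLIT1: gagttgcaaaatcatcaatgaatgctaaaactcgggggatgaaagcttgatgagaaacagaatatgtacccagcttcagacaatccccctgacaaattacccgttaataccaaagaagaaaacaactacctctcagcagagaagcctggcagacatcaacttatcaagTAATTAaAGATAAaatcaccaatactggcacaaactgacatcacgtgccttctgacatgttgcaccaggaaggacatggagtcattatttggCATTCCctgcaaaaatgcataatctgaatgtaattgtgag
SEMA5B: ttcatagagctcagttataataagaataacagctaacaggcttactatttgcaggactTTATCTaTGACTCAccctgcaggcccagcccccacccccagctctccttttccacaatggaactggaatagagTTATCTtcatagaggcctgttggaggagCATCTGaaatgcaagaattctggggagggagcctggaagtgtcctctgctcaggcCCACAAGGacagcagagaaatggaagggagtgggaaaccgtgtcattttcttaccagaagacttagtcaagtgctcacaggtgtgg
PLXNA2: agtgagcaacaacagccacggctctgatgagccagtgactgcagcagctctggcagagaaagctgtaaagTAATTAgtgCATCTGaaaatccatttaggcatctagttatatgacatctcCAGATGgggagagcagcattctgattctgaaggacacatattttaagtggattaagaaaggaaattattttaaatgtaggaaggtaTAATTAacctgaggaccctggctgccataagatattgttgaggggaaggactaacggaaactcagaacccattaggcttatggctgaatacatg
EPHB2: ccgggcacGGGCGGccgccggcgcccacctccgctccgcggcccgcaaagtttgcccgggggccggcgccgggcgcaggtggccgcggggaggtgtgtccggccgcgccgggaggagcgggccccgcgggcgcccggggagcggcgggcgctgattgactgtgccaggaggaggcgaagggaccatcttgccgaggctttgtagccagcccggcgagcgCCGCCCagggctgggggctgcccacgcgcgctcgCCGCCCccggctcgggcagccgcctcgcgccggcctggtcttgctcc

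Combined silencing lowered accessibility at many sites of these genes. Averaged over both combinations, 345 of the 2305 tested sites were lower than in Control at a false discovery rate (FDR) under 0.01 in edgeR's quasi-likelihood test, which is 15% beside 10.3% of all tested sites. Higher sites numbered 41, which is 1.78% beside 3.43% of all tested sites. The median log2 change over the 2305 sites was 0.00, and over all tested sites 0.03, both close to 0. At least 1 lower site was found for 43 genes and at least 1 higher site for 25, while 11 genes with 77 tested sites had none called. At an unadjusted p under 0.05, 5 of those 77 sites were lower and 9 higher, and DESeq2 called 1, a higher site of ROBO3. The same counts over all genes and all tested sites were not made. A gene with more sites has more chances of a call. In 295 of the 345 lower sites and 30 of the 41 higher sites, the 6 combination libraries did not overlap the 3 Control libraries. These sites were called from the same libraries, which favours such separation, and the same count over all called sites was not made. A library pools a whole culture, so fewer cells with a site open and less opening per cell cannot be told apart.

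Each combination gave the same order of counts on its own, with the Control libraries shared between both. With shARID1A/B.2.3, 341 sites were lower (14.8%, beside 10.4% of all tested sites) and 73 higher (3.17%, beside 2.85%). Without Control replicate 1, Control replicate 3 or shARID1A/B.2.3 replicate 2 the higher sites numbered 36, 32 and 48. The counts of shARID1A/B.4.2 were 262 lower sites (11.4%, beside 7.37%) and 43 higher sites (1.87%, beside 3.97%). When the scaling factors were taken from promoter sites, the 2 combinations had 410 lower and 22 higher sites, and 456 lower and 5 higher sites. Over all 357029 tested sites the counts were then 45760 lower and 3918 higher, and 53888 lower and 2893 higher. That scaling moved the median log2 change of all sites after combined silencing by -0.23, so the direction of small changes is relative to the scaling used.

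The sites that fell were stronger and more often intronic than the rest. Their median level over all libraries was 2.63 CPM, against 0.772 CPM for sites of these genes that were not called. Of the lower sites, 209 lay in introns, 131 between genes and 1 in a promoter, and of the higher sites 16, 16 and 6. Among intronic sites of these genes 21.1% were lower, beside 12% of all tested intronic sites, and among their intergenic sites 10.7%, beside 9.39%. The depth of a site sets how easily it is called. Within sites of 3 to 10 CPM, 124 of 249 (49.8%) were lower beside 29.8% of all tested sites of that level, and below 1 CPM, 64 of 1283 (4.99%) beside 3.77%.

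The families differed widely in how many sites fell, with neuropilins, ephrins B and plexins at the high end and Eph receptors A at the low end. Neuropilins had 39 lower sites of 80 tested (48.8%), ephrins B 12 of 35 (34.3%), plexins 51 of 165 (30.9%), ephrins A 39 of 148 (26.4%), membrane semaphorins 50 of 214 (23.4%) and secreted semaphorins 54 of 268 (20.1%). Robo receptors had 32 of 287 (11.1%), Slits 21 of 197 (10.7%), netrin receptors 21 of 229 (9.17%), netrins 2 of 30 (6.67%), Eph receptors B 7 of 110 (6.36%) and Eph receptors A 17 of 542 (3.14%). Median site levels were 1.35 CPM for neuropilins, 1.48 for ephrins B and 1.37 for plexins. They were 1.08 for membrane semaphorins, 0.947 for ephrins A and 0.89 for secreted semaphorins. Robo receptors had 0.776, Slits 0.82, netrin receptors 0.756 and Eph receptors A 0.782. Netrins and Eph receptors B had 1.17 each. Deeper sites are called more easily, and the part of depth in the order of families was not tested. Sites of 1 gene share a locus and are not independent, and no test was made between families. Higher sites were few, with 15 of 542 in Eph receptors A (2.77%, and 4 without Control replicate 3), 5 of 148 in ephrins A (3.38%) and 2 of 30 in netrins (6.67%).

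**Figure D1:**
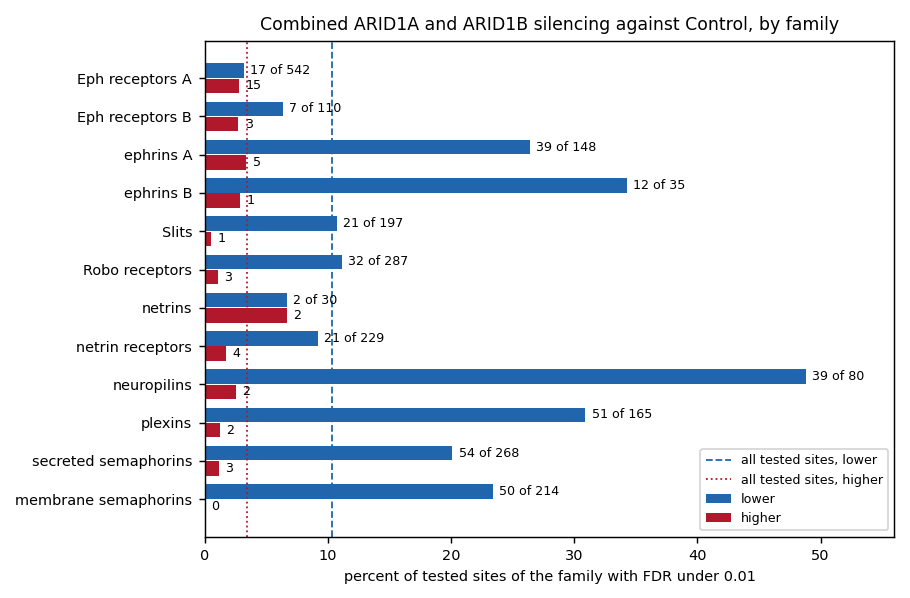
Percent of the tested sites of each family (horizontal axis) that were lower (blue) or higher (red) after combined silencing at an FDR under 0.01, with counts beside the bars and the shares over all tested sites as dashed (lower, 10.3%) and dotted (higher, 3.43%) lines. Neuropilins reach 48.8% lower, and Eph receptors A 3.14%.

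Neuropilins and plexins together form the receptor for most secreted semaphorins, and both had many sites that closed. NRP2, the co-receptor preferred by SEMA3F, had 27 lower sites of 50 tested, spread from -273.6 to 184.1 kb from its start site. The named falls and rises were the largest, at most 1 per gene, among called sites with a mean of at least 1 CPM. Only sites whose combination libraries all lay on one side of the Control libraries were eligible. Their lack of overlap, here and below, was thus required by the choice. The largest fall was at an NRP2 site of 2402 bases in intron 11 of 17 (chr2:205745640-205748041, GRCh38), 64.4 kb from the start site. There the Control libraries held 28.1, 25 and 26.4 CPM, the shARID1A/B.2.3 libraries 5.25, 4.30 and 5.45 CPM, and the shARID1A/B.4.2 libraries 8.02, 7.22 and 7.56 CPM. All 6 combination libraries were far below all 3 Control libraries, and the log2 change was -2.11 ± 0.09 (SE, edgeR FDR 2.49e-36). The single shRNAs lay between, with means of 15.4 ± 0.65 and 9.15 ± 0.23 CPM for shARID1A.2 and shARID1A.4, and 12.4 ± 0.80 and 8.38 ± 0.80 CPM for shARID1B.2 and shARID1B.3 (SD, n = 3). NRP1, the co-receptor for SEMA3A and for vascular endothelial growth factor, had 12 lower sites of 30.

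**Figure D2:**
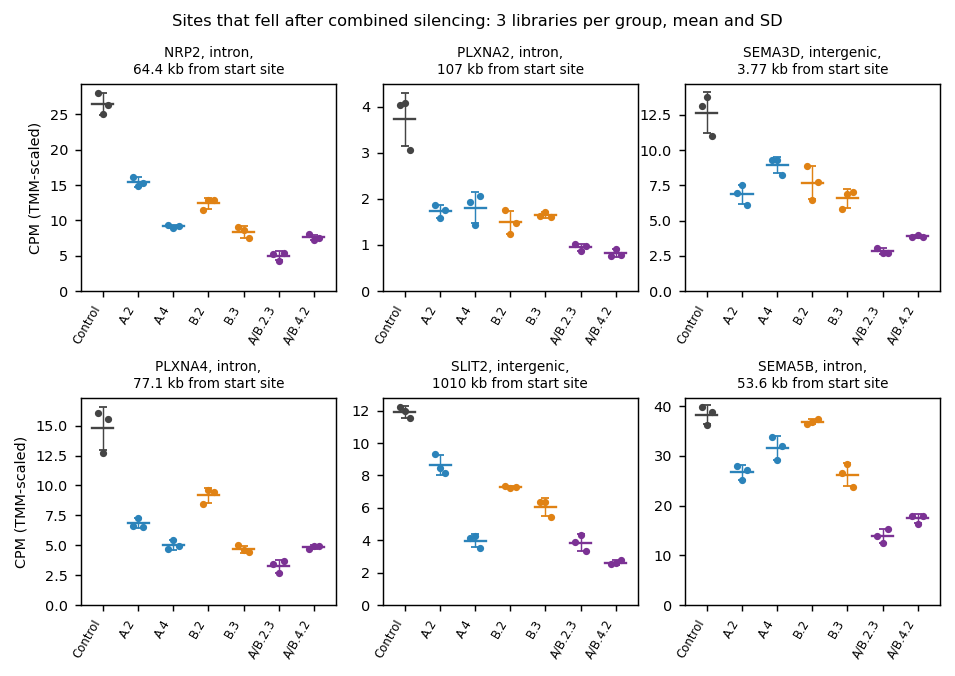
Accessibility (CPM, vertical axis from 0) in each library at 6 sites that fell after combined silencing, by group (A.2, for example, is shARID1A.2), with points for the 3 libraries, a bar for the mean and whiskers for the SD. At every site the combination libraries lie below all Control libraries, which the choice of sites required at all but SEMA5B. At NRP2 the combination libraries hold 4.30 to 8.02 CPM against 25 to 28.1 CPM.

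Among plexins, PLXNA2 stood out, with 31 lower sites of 71 tested. No PLXNA2 site was called higher by edgeR or DESeq2, and 1 was higher at an unadjusted p under 0.05. At a site in intron 4 of 31 (chr1:208136588-208137676), 107 kb from the start site, Control libraries held 4.04, 4.07 and 3.05 CPM. The combination libraries held 1.02, 0.860 and 0.967 CPM for shARID1A/B.2.3 and 0.762, 0.920 and 0.788 CPM for shARID1A/B.4.2. The groups did not overlap, and the log2 change was -2.07 ± 0.16 (edgeR FDR 2.37e-19). PLXNA4, which pairs with neuropilins in the response to SEMA3A, had 4 lower sites of 14. Its strongest fall, in intron 3 of 32 (chr7:132498454-132500196), took Control libraries of 16.1, 12.7 and 15.6 CPM to 3.45, 2.65 and 3.65 CPM in shARID1A/B.2.3 and 4.66, 4.92 and 4.92 CPM in shARID1A/B.4.2. That is a log2 change of -1.91 ± 0.10 (edgeR FDR 1.39e-29), with no overlap. PLXNC1, the receptor of the membrane-linked SEMA7A, had 9 lower sites of 24, and PLXNA1 5 of 32. PLXNB2, PLXND1 and the 1 site each of PLXNA3 and PLXNB1 added 1, 1, 0 and 0 lower sites.

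**Figure D3:**
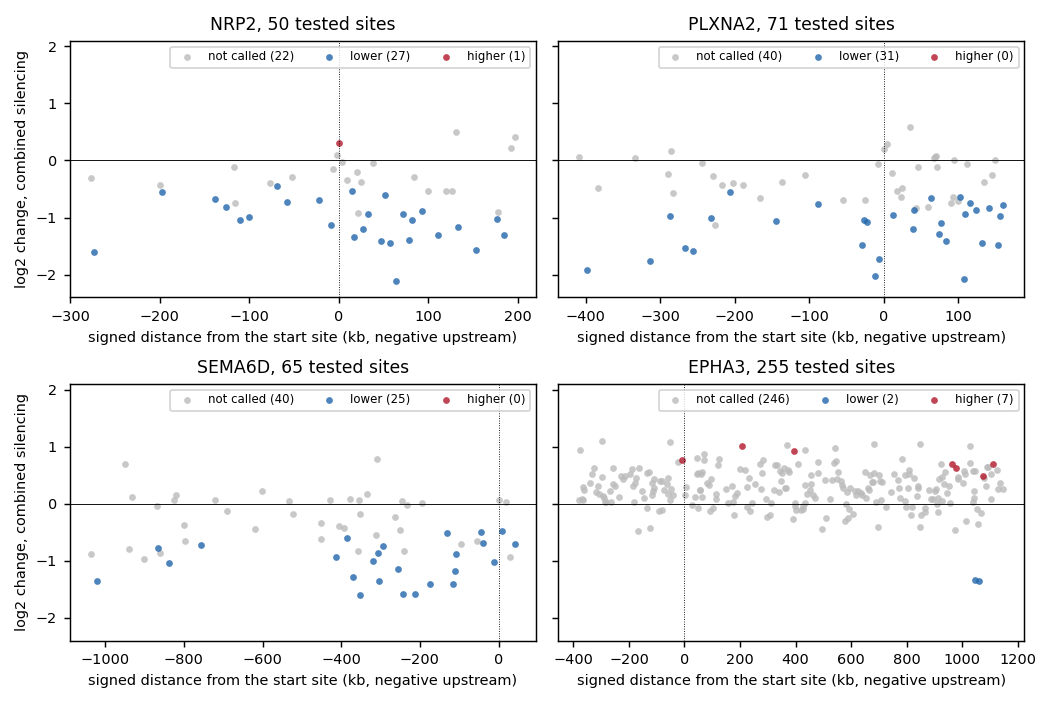
Log2 change after combined silencing (vertical axis) of every tested site of NRP2, PLXNA2, SEMA6D and EPHA3 against its signed distance from the start site in kb (horizontal axis, dotted line at 0), with lower sites in blue, higher sites in red and sites not called in grey. Lower sites of NRP2 (27), PLXNA2 (31) and SEMA6D (25) are spread along the loci, and the higher NRP2 site lies at the start site, whereas EPHA3 has 2 lower and 7 higher sites among 255.

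Every gene of the secreted semaphorins had lower sites. They were 20 of 124 for SEMA3D, 11 of 46 for SEMA3A, 11 of 46 for SEMA3C, 8 of 47 for SEMA3E and 4 of 5 for SEMA3F. SEMA3A is the classical collapsing factor of growth cones and SEMA3F the repellent that acts through NRP2. The largest named fall of the family was at a SEMA3D site 3.77 kb upstream of the start site (chr7:85124684-85126724), whose window above holds 1 AGATAA and 1 CAGATG match. Control libraries held 13.1, 13.8 and 11 CPM there, shARID1A/B.2.3 libraries 3.05, 2.72 and 2.73 CPM, and shARID1A/B.4.2 libraries 3.81, 3.96 and 3.85 CPM. All 6 combination libraries lay below all Control libraries, at a log2 change of -1.93 ± 0.11 (edgeR FDR 1.18e-28).

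In the membrane semaphorins all 50 sites called by edgeR were lower, although 14 sites were higher at an unadjusted p under 0.05, and DESeq2 called 43 lower and 1 higher. SEMA6D, a transmembrane semaphorin that binds PLXNA1, had 25 lower sites of 65, SEMA6A, a ligand of PLXNA2 and PLXNA4, 10 of 27, SEMA5B 7 of 24, SEMA4D, the ligand of PLXNB1, 6 of 36, and SEMA5A 2 of 62. The largest named SEMA6D fall was in intron 1 of 19 (chr15:47363899-47365440), 353 kb upstream of the start site used by the annotation. It went from 7.70, 5.96 and 6.49 CPM in Control to 2.1, 1.83 and 2.15 CPM in shARID1A/B.2.3 and 2.51, 2.21 and 2.55 CPM in shARID1A/B.4.2, without overlap (log2 change -1.60 ± 0.12, edgeR FDR 7.45e-20). A strong SEMA5B site in intron 1 of 22 (chr3:122973789-122976179) held 39.9, 36.2 and 38.7 CPM in Control. It fell to 13.9, 12.4 and 15.2 CPM in shARID1A/B.2.3 and to 17.9, 16.3 and 18 CPM in shARID1A/B.4.2, again without overlap (log2 change -1.3 ± 0.08, edgeR FDR 9.55e-27).

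Among ephrins, the lower sites lay mainly at 3 genes. EFNA5, a glycolipid-anchored ephrin that repels axons in topographic maps, had 38 lower sites of 134, and the other ephrins A, EFNA1 to EFNA4 with 2 to 5 tested sites each, had 1 lower and 5 higher sites in all. At an EFNA5 site in intron 1 of 3 (chr5:107472524-107473131), Control libraries of 3.27, 4.07 and 4.05 CPM stood against 1.74, 1.23 and 1.5 CPM in shARID1A/B.2.3 and 0.806, 0.552 and 1.34 CPM in shARID1A/B.4.2. The groups were apart, with a log2 change of -1.73 ± 0.16 (edgeR FDR 9.33e-16). EFNB1 and EFNB2, transmembrane ephrins that also signal back into their own cell, had 8 lower sites of 21 and 4 of 13. At an intergenic EFNB1 site 47.7 kb from the start site (chrX:68876214-68877097), Control libraries held 3.56, 3.49 and 3.81 CPM and combination libraries 0.874 to 1.44 CPM (log2 change -1.63 ± 0.16, edgeR FDR 5.70e-15).

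The Eph receptors, which bind these ephrins, had many sites and few calls. EPHA4, a receptor for ephrins of both classes, had 9 lower and 2 higher sites of 71, and EPHB3 had 6 lower and 1 higher of 23. At EPHA8, 1 site in intron 2 of 16 (chr1:22572639-22573547) fell from 3.32, 2.55 and 4.05 CPM to 0.427, 0.836 and 0.923 CPM in shARID1A/B.2.3 and 1.43, 0.874 and 1.48 CPM in shARID1A/B.4.2 (log2 change -1.78 ± 0.18, edgeR FDR 3.38e-14, no overlap). EPHA6 (37 tested sites), EPHA10 (3), EPHB4 (6) and EPHB6 (11) had no site called by edgeR or DESeq2. EPHA10 and EPHB6 are the receptors without an active kinase.

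EPHA3 and EPHA7, which bind ephrins A, had 7 higher and 2 lower sites of 255, and 4 higher and 2 lower of 109, after combined silencing. The higher sites made up 2.75% and 3.67%, near the 3.43% of all tested sites. EPHA3 had 23 higher sites of 255 with shARID1A/B.2.3 and 3 with shARID1A/B.4.2, and EPHA7 had 9 and 0 of 109. In the direct test between the combinations, 6 EPHA3 and 2 EPHA7 sites were higher with shARID1A/B.2.3, and 1 EPHA3 site was lower. The named EPHA3 site in intron 3 of 16 (chr3:89314330-89315089) held 2.07, 2.75 and 2.25 CPM in Control, 5.12, 7.34 and 5.19 CPM in shARID1A/B.2.3 and 3.45, 4.00 and 3.85 CPM in shARID1A/B.4.2. Both combinations were above all Control libraries (log2 change 1.0 ± 0.15, edgeR FDR 2.16e-08), and they also differed from each other (0.67 ± 0.14, edgeR FDR 4.48e-04). Most of these sites are weak, with a median of 0.782 CPM over the Eph receptors A, and the count turned on single libraries. Without Control replicate 3, shARID1A/B.2.3 had 4 higher EPHA3 sites, and over all single omissions the count was 4 to 32. With scaling factors from promoter sites it was also 4, and the Eph receptors A then had 28 lower and 2 higher sites after combined silencing in place of 17 and 15, with the median log2 change moving from 0.20 to -0.03.

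Slits and Robo receptors each had about the share of lower sites seen over all tested sites. SLIT1 had 6 lower sites of 15, SLIT2 11 of 167 and SLIT3 4 of 15, and ROBO1 27 of 216, ROBO2 4 of 54, and ROBO4, the endothelial Robo, 1 of 6. A SLIT1 site 7.70 kb from the start site (chr10:97177875-97178570), within intron 11 of 14 of the read-through gene ARHGAP19-SLIT1, went from 7.36, 8.01 and 7.70 CPM to 2.86, 1.67 and 2.20 CPM in shARID1A/B.2.3 and 2.82, 2.30 and 2.37 CPM in shARID1A/B.4.2. Its log2 change was -1.71 ± 0.13 (edgeR FDR 3.91e-21), and its window above holds 1 AGATAA, 1 TAATTA and 1 GGAATG match. The SLIT2 site with the largest fall lay 1010 kb upstream of the start site (chr4:19241163-19242464), where the nearest gene is a weak guide to the target. It held 12.2, 12 and 11.5 CPM in Control, 3.87, 4.34 and 3.34 CPM in shARID1A/B.2.3 and 2.51, 2.58 and 2.78 CPM in shARID1A/B.4.2 (log2 change -1.89 ± 0.10, edgeR FDR 1.63e-28). In ROBO2, a site in intron 2 of 23 (chr3:76138632-76139744) fell by 1.63 on the log2 scale, with a standard error of 0.12 (edgeR FDR 7.52e-21), from 6.69 to 8.38 CPM in Control to 2.00 to 3.00 CPM in the combinations.

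Netrins had few sites, and their receptors differed from one to the next. NTN1, the founding secreted netrin, had 3 tested sites and NTNG1 1, none of them called, whereas NTN4 had 1 lower site of 7 and NTNG2 1 lower and 2 higher sites of 19. UNC5C, a repulsive netrin receptor, had 10 lower sites of 36, UNC5D 6 lower and 1 higher of 155, UNC5A 3 lower and 1 higher of 15, DCC 2 lower of 10, and UNC5B 0 lower and 2 higher of 13. At an unadjusted p under 0.05 in edgeR, however, 6 UNC5B sites were lower and 2 higher. A UNC5C site in intron 1 of 16 (chr4:95466734-95467431) went from 4.43, 4.85 and 4.73 CPM to 1.41, 1.3 and 1.76 CPM in shARID1A/B.2.3 and 1.84, 1.43 and 1.34 CPM in shARID1A/B.4.2 (log2 change -1.64 ± 0.14, edgeR FDR 4.62e-17). With the factors from promoter sites the netrins had 6 lower and 0 higher sites, and the median log2 changes of the netrin receptors, Slits and Eph receptors B, which were 0.12, 0.09 and 0.05, became -0.11, -0.14 and -0.18.

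When the counts of all sites of a gene were summed, 22 of the 58 genes fell and 2 rose, beside 16.0% of all genes tested that fell and 16.8% that rose. The largest falls were those of PLXNA2, NRP2 and SEMA5B. PLXNA2 held 197.6, 159.1 and 191.2 CPM in Control and 96.6 to 120.4 CPM in the combination libraries (log2 change -0.69 ± 0.07, edgeR FDR 8.14e-08). NRP2 held 213.4, 184.6 and 209.9 CPM in Control and 107.6 to 144.5 CPM in the combinations (-0.62 ± 0.07, edgeR FDR 1.10e-07). These sums did not overlap between the groups. SEMA5B changed by -0.61 ± 0.07, SLIT1 by -0.49 ± 0.08, ROBO4 by -0.47 ± 0.06, and SEMA6D, SEMA3F and EFNA5 by -0.42 ± 0.04, -0.42 ± 0.10 and -0.41 ± 0.03, while SEMA3C, EPHA4, PLXNA4, SEMA3A, EPHB3 and NRP1 fell by 0.30 to 0.38 (edgeR FDR 1.98e-10 to 4.08e-03 over these 14 genes). The sums of EFNA2 (0.50 ± 0.15, edgeR FDR 8.30e-03) and EPHA3 (0.26 ± 0.07, edgeR FDR 4.37e-03) rose. For EPHA3, Control replicate 2 at 290.2 CPM lay above all 3 shARID1A/B.4.2 libraries, which held 276.4 to 286.7 CPM, and shARID1A/B.2.3 replicate 2 was the highest at 397.6 CPM. Neither rise was called with factors from promoter sites, nor without Control replicate 1 or 3.

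Sites at the start of the genes moved about as those of all genes did. For 46 of the 58 genes a tested site lay within 1000 bases of the start site, and of these 1 was lower (2.17%) and 13 were higher (28.3%) after combined silencing, with log2 changes from -0.33 to 0.70. Of the 16867 such sites over all genes, 3.72% were lower and 32.1% higher, shares near those of the 46, and the median log2 change was 0.23 beside 0.21 for the 46. Of the 13 genes with a higher start site, 10 had at least 1 lower site elsewhere, 69 lower sites of 267 in all. NRP1 and NRP2 were among them and held 12 and 27 of these 69 lower sites. Of all 2305 tested sites of the 58 genes, 345 (15%) were lower. How often other genes with a higher start site had lower sites elsewhere was not counted. The NRP1 promoter site (chr10:33334169-33337124) held 26.9, 23.2 and 25.4 CPM in Control and 27.6 to 34.5 CPM in the combinations (log2 change 0.35 ± 0.08, edgeR FDR 2.62e-04), with no overlap, and 12 of the other 29 NRP1 sites were lower. The NRP2 promoter site (chr2:205681978-205682863) overlapped between groups, at 15 to 16.9 CPM in Control, 16.7 to 18.2 CPM in shARID1A/B.2.3 and 20.7 to 23.0 CPM in shARID1A/B.4.2 (0.30 ± 0.09, edgeR FDR 5.93e-03).

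The counts at start sites depended on the scaling. With factors from promoter sites 1 start site was higher and 7 were lower, and the median log2 change over the 46 went from 0.21 to -0.02. The start site called higher under both scalings was that of UNC5B (chr10:71211977-71214221). It held 14.9, 10.5 and 14.6 CPM in Control, 22, 18.4 and 22.1 CPM in shARID1A/B.2.3 and 23.2, 21.7 and 21.8 CPM in shARID1A/B.4.2, without overlap. Its log2 change was 0.69 ± 0.10 (edgeR FDR 4.09e-09) in the main scaling and 0.46 ± 0.08 with promoter factors, and with ARID1A or ARID1B silencing alone 0.55 ± 0.10 and 0.47 ± 0.10 (edgeR FDR 7.31e-06 and 1.94e-04). The start site that was lower was that of PLXNC1 (chr12:94261771-94263524). Its libraries held 18.5, 15.7 and 19.1 CPM in Control, 11.5, 10.5 and 13.1 CPM in shARID1A/B.2.3 and 16.8, 16.1 and 18.6 CPM in shARID1A/B.4.2, so the fall belonged to the first combination (-0.61 ± 0.10, edgeR FDR 1.39e-06). The combinations differed there by -0.56 ± 0.10 (edgeR FDR 3.36e-05).

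**Figure D4:**
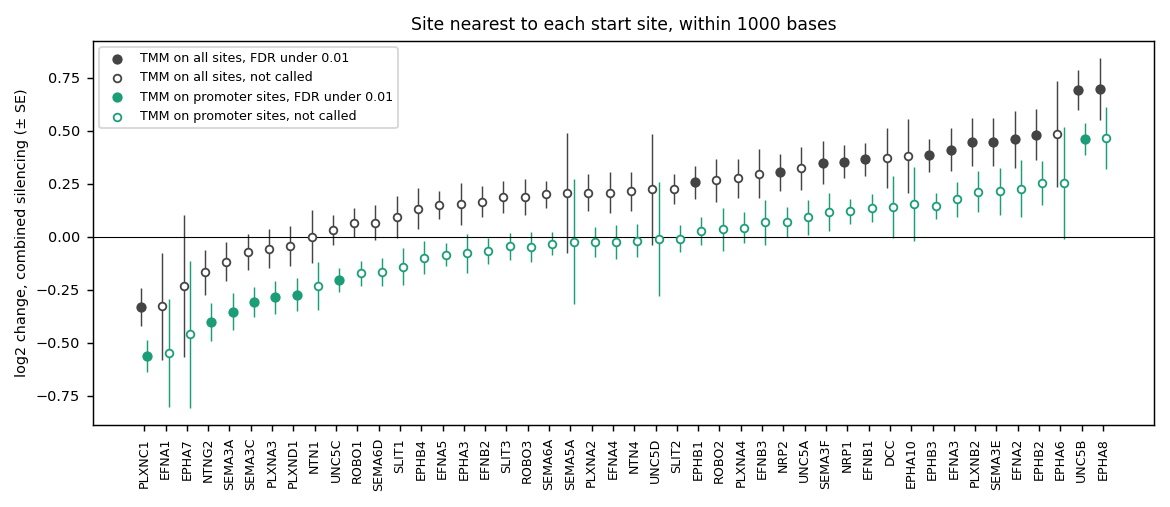
Log2 change after combined silencing, with its SE, at the site nearest to the start site of 46 genes (horizontal axis), under 2 scalings, with filled points for an FDR under 0.01. With factors from all sites (grey) 13 are higher and 1 lower, and with factors from promoter sites (green) 1 is higher and 7 are lower.

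The named rises other than that of EPHA3 were small beside the falls. An intergenic EFNA2 site 29.8 kb from the start site (chr19:1315385-1316481) held 1.25, 1.56 and 1.80 CPM in Control and 1.95 to 3.15 CPM in the combinations (log2 change 0.79 ± 0.17, edgeR FDR 1.95e-04). A UNC5B site 3.39 kb upstream (chr10:71208976-71209306) held 1.88, 1.15 and 2.17 CPM against 2.28 to 3.54 CPM (0.78 ± 0.17, edgeR FDR 1.15e-04). Bases G and C made up 78.7% and 66.3% of the central 300 bases of these 2 sites. ROBO2 (chr3:76024634-76024929), NTNG2 (chr9:132236289-132236651) and ROBO1 (chr3:78029719-78030359) had rises of 0.79 ± 0.20, 0.75 ± 0.19 and 0.76 ± 0.22 at sites with 0.841 to 1.39 CPM in Control (edgeR FDR 1.93e-03, 1.63e-03 and 5.46e-03). The sites at the start of EPHB2 (chr1:22709435-22713039) and SEMA3E (chr7:83648078-83649327) rose by 0.48 ± 0.12 and 0.45 ± 0.11 (edgeR FDR 1.08e-03 and 1.45e-03), and the EPHB2 window above holds 3 GGGCGG matches. Of these 7 rises, all but that at UNC5B missed the threshold with factors from promoter sites. The UNC5B rise missed it without Control replicate 2 (0.58, edgeR FDR 0.0129), as did those of NTNG2, EPHB2 and ROBO1, and those of ROBO1 and ROBO2 missed it without Control replicate 1 or 3.

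Silencing of 1 gene lowered fewer of these sites. ARID1A silencing, averaged over its 2 shRNAs, had 191 lower sites (8.29%, beside 5.37% of all tested sites) and 14 higher (0.607%, beside 1.67%). ARID1B silencing had 123 lower sites (5.34%, beside 3.53%) and 16 higher (0.694%, beside 1.39%). By shRNA, lower and higher sites were 156 (6.77%, beside 4.54%) and 11 (0.477%, beside 0.834%) for shARID1A.2, and 149 (6.46%, beside 4.17%) and 23 (0.998%, beside 2.28%) for shARID1A.4. They were 62 (2.69%, beside 1.84%) and 27 (1.17%, beside 1.34%) for shARID1B.2, and 156 (6.77%, beside 4.88%) and 48 (2.08%, beside 3.12%) for shARID1B.3, which included the deepest library. Without shARID1A.2 replicate 2 the first count of lower sites was 100, without shARID1A.4 replicate 1 the second was 99, and without shARID1B.2 replicate 1 the third was 37. The few higher sites also turned on single libraries. Those of ARID1A silencing numbered 26 without shARID1A.2 replicate 2 and 28 without shARID1A/B.2.3 replicate 2, and those of ARID1B silencing 9 without Control replicate 3 and 10 without shARID1B.3 replicate 2. For shARID1A.2 they were 7 without its replicate 1 and 21 without shARID1A/B.2.3 replicate 2, and for shARID1A.4 14 without its replicate 2 and 38 without shARID1A/B.2.3 replicate 2. For shARID1B.2 they were 17 without Control replicate 1 or 3 or its own replicate 2, and 16 without its replicate 3, and for shARID1B.3 30 without its replicate 2. With factors from promoter sites the lower and higher counts were 302 and 4 for ARID1A silencing, beside 34100 and 1199 over all 357029 tested sites. For ARID1B silencing they were 196 and 5, beside 20590 and 2099. For shARID1A.2 they were 235 and 6 (beside 24113 and 1269), and for shARID1A.4 270 and 1 (beside 29566 and 1558). For shARID1B.2 they were 83 and 14 (beside 9253 and 3275), and for shARID1B.3 272 and 21 (beside 29026 and 4215). At the 345 sites chosen for being lower after combined silencing, the median log2 change was -0.94 with both genes silenced. It was -0.57 with ARID1A and -0.42 with ARID1B silenced, all against the shared Control libraries. That choice of sites favours a larger change with both genes silenced, so the order of these medians is partly set by it.

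By family, the counts with either gene silenced stood as follows, with the Control libraries shared. Neuropilins had 23 lower sites of 80 with ARID1A silencing and 12 with ARID1B silencing, plexins 31 and 17 of 165, membrane semaphorins 29 and 15 of 214, ephrins A 24 and 16 of 148, and secreted semaphorins 19 and 18 of 268. Robo receptors had 13 and 14 of 287, Slits 13 and 12 of 197, netrin receptors 14 and 6 of 229, ephrins B 10 and 4 of 35, Eph receptors A 9 and 4 of 542, Eph receptors B 5 and 5 of 110, and netrins 1 and 0 of 30. Whether the families differed in their response to the 2 genes was not tested.

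Combined silencing lowered sites below the mean of the 4 single shRNAs. In the direct test of combined against single silencing, averaged over 4 shRNAs, 219 sites were lower (9.5%, beside 6.85% of all tested sites) and 15 higher (0.651%, beside 0.969%). The mean of the single shRNAs covers both genes, so a site that responds to 1 gene alone can be called without a further fall. The EPHA4 site described below was called (-0.75 ± 0.08, edgeR FDR 2.03e-12). It held means of 3.88 and 4.89 CPM in the combinations and 4.05 CPM with shARID1A.2. The 4 named sites were those of SEMA5B, NRP2, SEMA3D and SLIT2 described above. At the SEMA5B site the single shRNAs had means of 26.7 ± 1.49, 31.6 ± 2.37, 36.9 ± 0.44 and 26.2 ± 2.33 CPM (shARID1A.2, shARID1A.4, shARID1B.2 and shARID1B.3, SD, n = 3), against 38.3 ± 1.91 CPM in Control and 13.9 ± 1.44 and 17.4 ± 0.93 CPM in the combinations. The change from the mean of the single shRNAs was -0.96 ± 0.06 (edgeR FDR 3.34e-24). Against Control it was -0.40 ± 0.08 with ARID1A and -0.30 ± 0.08 with ARID1B silenced alone. At the SEMA3D site the change from the mean of the single shRNAs was -1.17 ± 0.08 (edgeR FDR 3.42e-20). It was -0.85 ± 0.07 at the NRP2 site (edgeR FDR 4.88e-17) and -0.96 ± 0.09 at the SLIT2 site (edgeR FDR 6.36e-16). At these last sites 1 single shRNA overlapped 1 combination. The NRP2 site held 9.01, 8.64 and 7.48 CPM with shARID1B.3, beside 8.02, 7.22 and 7.56 CPM with shARID1A/B.4.2. The SLIT2 site held 4.12, 4.25 and 3.51 CPM with shARID1A.4, beside 3.87, 4.34 and 3.34 CPM with shARID1A/B.2.3. By family, 20 of 80 neuropilin sites (25%), 8 of 35 ephrin B sites (22.9%), 36 of 165 plexin sites (21.8%) and 42 of 268 sites of secreted semaphorins (15.7%) were lower in this test. The 15 higher sites became 8 to 25 without 1 library, and 6 with factors from promoter sites (beside 1116 of all 357029 tested sites). They numbered 24 without Control replicate 2, 25 without shARID1A/B.2.3 replicate 1, 8 without shARID1A/B.4.2 replicate 1, and 9 without shARID1A.4 replicate 3, shARID1A/B.2.3 replicate 2, or shARID1A/B.4.2 replicate 2 or 3.

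ARID1A and ARID1B silencing differed directly at 119 sites. Accessibility was lower with ARID1A silenced at 92 (3.99%, beside 3.69% of all tested sites) and higher at 27 (1.17%, beside 1.05%), shares near those of all sites. The 5 sites named here separated the 2 genes. In intron 4 of 17 of EPHA4 (chr2:221492640-221494426), means were 8.93 ± 1.07 CPM in Control, 4.05 ± 0.55 and 7.22 ± 0.37 CPM with the ARID1A shRNAs, 9.10 ± 0.25 and 10.9 ± 1.25 CPM with the ARID1B shRNAs, and 3.88 ± 0.13 and 4.89 ± 0.15 CPM in the combinations (SD, n = 3). The difference was -0.88 ± 0.09 (edgeR FDR 1.68e-13). A PLXNA2 site 257 kb upstream (chr1:208499860-208501512), whose window holds 2 CAGATG and 2 TAATTA matches, had 6.31 ± 0.67 CPM in Control, 2.90 ± 0.28 and 2.28 ± 0.47 CPM with ARID1A silenced, and 4.63 ± 0.55 and 6.07 ± 0.60 CPM with ARID1B silenced. In the combinations it had 2.09 ± 0.46 and 2.17 ± 0.27 CPM, and the difference between the genes was -1.03 ± 0.11 (edgeR FDR 5.33e-12). At both sites combined silencing was also called lower than Control (-1.03 ± 0.11 at EPHA4 and -1.59 ± 0.13 at PLXNA2, edgeR FDR 6.46e-14 and 1.36e-18). A SEMA3C site in intron 12 of 18 (chr7:80790452-80792035) rose with ARID1B silencing (0.49 ± 0.10, edgeR FDR 1.07e-04), from 8.14 ± 0.43 CPM to 11.9 ± 0.82 and 11 ± 0.61 CPM, and the difference was -0.78 ± 0.08 (edgeR FDR 1.12e-12). For PLXNC1 (chr12:94225011-94226831) and SEMA3D (chr7:84931739-84933270) it was -0.85 ± 0.09 and -0.82 ± 0.09 (edgeR FDR 1.07e-11 and 1.54e-11). All ARID1A-silenced libraries lay below all ARID1B-silenced libraries at these 5 sites. At SEMA3C the ARID1A shRNAs had means of 8.05 ± 0.48 and 5.55 ± 0.29 CPM, and ARID1A silencing was not called against Control (edgeR FDR 0.0531). By itself shARID1A.4 was not called against Control at EPHA4, PLXNC1 or SEMA3D (edgeR FDR 0.1, 0.102 and 0.0166).

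**Figure D5:**
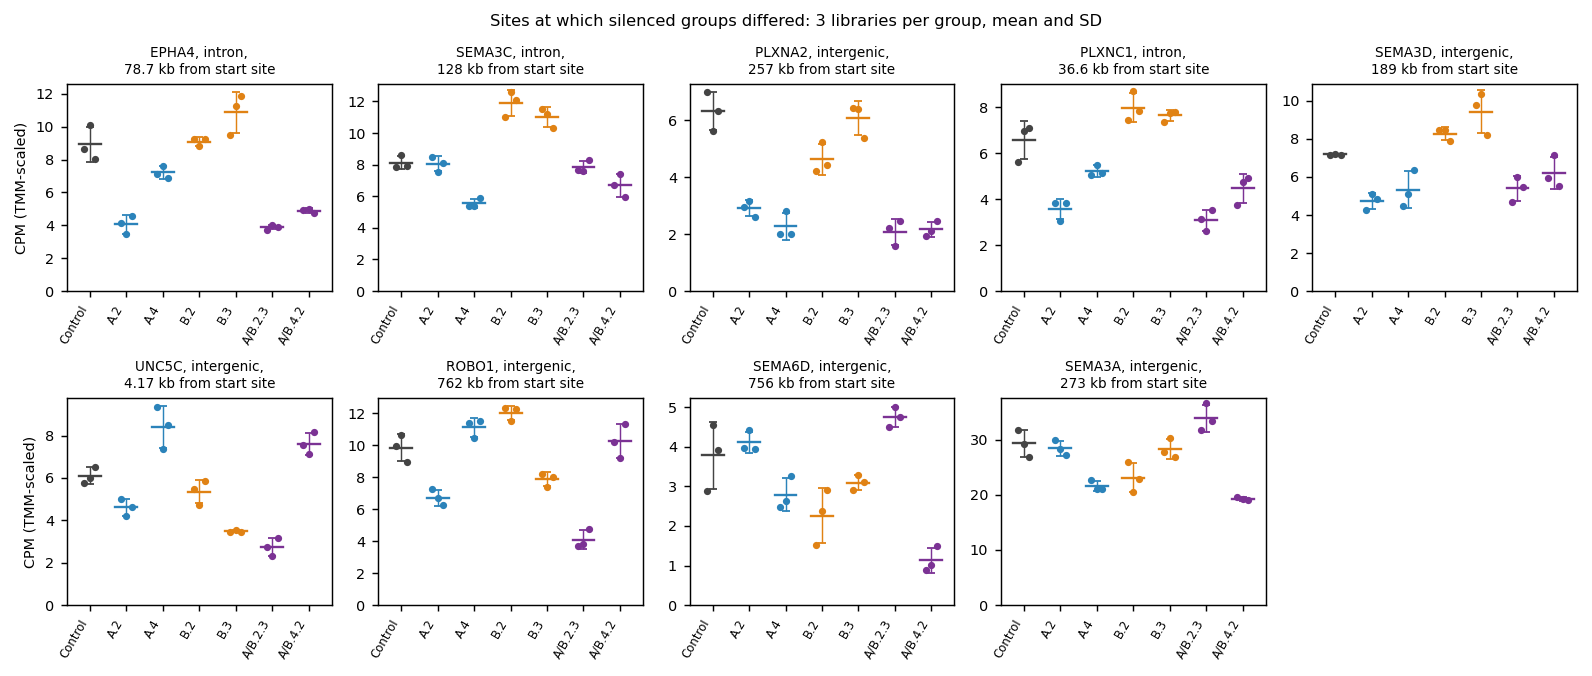
Accessibility (CPM, vertical axis from 0) in each library at 9 sites where silenced groups differed, by group, with points for the 3 libraries, a bar for the mean and whiskers for the SD. The first 5 panels (EPHA4 to SEMA3D) separate the ARID1A (blue) from the ARID1B (orange) libraries, and the last 4 separate the combinations (purple), as at SEMA6D with 4.50 to 5.02 against 0.896 to 1.48 CPM.

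The 2 combinations differed from each other at 123 sites, 74 lower with shARID1A/B.2.3 than with shARID1A/B.4.2 (3.21%, beside 3.79% of all tested sites) and 49 higher (2.13%, beside 1.43%). This split followed the scaling, with 40 and 94 sites for promoter factors, 56 and 66 for library totals alone, and 56 and 58 for factors that varied with abundance. Over all 357029 tested sites these counts were 6443 and 11832, 9987 and 8317, and 9795 and 7276. Without shARID1A/B.2.3 replicate 2 the higher sites numbered 32. Both combinations target the same 2 genes with different shRNAs, and the part of each shRNA in their differences was not tested. At 3 sites shARID1A/B.2.3 was called lower and shARID1A/B.4.2 higher than Control, and at none the reverse. Such opposite calls were not counted over all tested sites or under the other scalings. At a UNC5C site 4.17 kb upstream (chr4:95553086-95553685), Control libraries held 5.77, 6.0 and 6.53 CPM, shARID1A/B.2.3 libraries 2.76, 2.30 and 3.17 CPM and shARID1A/B.4.2 libraries 7.57, 7.13 and 8.16 CPM, a difference of -1.51 ± 0.14 (edgeR FDR 1.91e-15). This UNC5C site is not one of those 3, since shARID1A/B.4.2 was not called higher than Control there (0.32 ± 0.13, edgeR FDR 0.0724). Among the single shRNAs the lowest mean there was 3.48 ± 0.05 CPM for shARID1B.3 and the highest 8.40 ± 1.0 CPM for shARID1A.4.

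A ROBO1 site 762 kb from the start site (chr3:78255029-78256390) held 3.68, 3.79 and 4.75 CPM in shARID1A/B.2.3 and 10.2, 9.20 and 11.3 CPM in shARID1A/B.4.2, beside 9.91, 10.6 and 8.94 CPM in Control (difference -1.35 ± 0.12, edgeR FDR 2.12e-15). The reverse held at an intergenic SEMA6D site 756 kb upstream (chr15:46961614-46962463), with 4.50, 5.02 and 4.75 CPM in shARID1A/B.2.3 and 0.896, 1.01 and 1.48 CPM in shARID1A/B.4.2 (2.08 ± 0.19, edgeR FDR 2.87e-15). It also held at a strong SEMA3A site 273 kb from the start site (chr7:83921483-83922886), with 31.8, 36.6 and 33.3 CPM against 19.5, 19.2 and 19.0 CPM, and 31.7, 29.3 and 26.9 CPM in Control (0.82 ± 0.09, edgeR FDR 1.74e-11). At all 4 sites the libraries of the combinations were apart.

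The motifs searched were more frequent in some sets of sites than in others. In the central 300 bases of the 345 lower sites, AGATAA was found in 29.3%, TAATTA in 18.6%, CAGATG in 33.0% and TGANTCA in 14.5%, on either strand. Over all tested sites the shares were 17.0%, 7.87%, 23.0% and 10.9%, and over all tested sites that were lower 24.7%, 14.1%, 33.0% and 14.3%. GGGCGG was found in 43.9% of the 41 higher sites, beside 9.06% of all tested sites and 46.5% of all higher sites. Lower sites of these genes had a median of 42.3% G and C and higher sites 56%, beside 46.7% over all tested sites, and the part of base composition in these shares was not tested. CAGCTG was found in 16.2% of the lower sites and 17.6% of all tested sites, GGAATG in 16.5% and 16.8%, and CCACNAGG in 2.90% and 6.11%.

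Other genes of the pathway were counted from 2 further lists. Of 33 other guidance ligands, receptors and adhesion molecules, 76 of 533 tested sites were lower (14.3%, beside 10.3% of all tested sites) and 17 higher (3.19%, beside 3.43%) after combined silencing. By summed counts 8 of the 33 genes fell and 2 rose, beside 16.0% and 16.8% of all genes tested. BOC, a receptor for Sonic hedgehog in commissural axons, had 10 lower sites and a summed log2 change of -0.41 ± 0.05 (edgeR FDR 8.07e-07), and the adhesion molecules NCAM1 and NRCAM changed by -0.35 ± 0.05 and -0.34 ± 0.05 (edgeR FDR 8.07e-06 and 1.37e-05). Of 40 genes for effectors inside the cell, 121 of 786 sites were lower (15.4%) and 35 higher (4.45%), and 9 genes fell and 6 rose by summed counts, to be read beside the same shares of all sites and genes. DPYSL3, a collapsin response mediator, had 11 lower sites (-0.43 ± 0.04, edgeR FDR 3.47e-08), and the guanine exchange factor TRIO had 13 lower and 3 higher sites of 51. Median log2 changes were -0.05 and 0.02 over the tested sites of the 2 lists.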

How the data were processed

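ATAC-seq was performed on 21 cultures of SK-N-BE(2) cells, 3 biological replicates in each of 7 groups. The authors deposited raw read counts per consensus site on GRCh38, in 1 table per shRNA or combination with the shared Control, together with an annotation of each site from HOMER. DESeq2 is named in the submitters' processing notes. Versions of the aligner and peak caller are not stated there. The deposited tables also hold normalized counts, log2 ratios and adjusted p-values of the authors' own comparisons, which were not used. The consensus sites came from merged replicates.

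Counts were joined over the tables and filtered with filterByExpr (minimum count 10), which left 357029 of 367900 sites. All 21 libraries were fitted together in edgeR 4.0.16 (R 4.3.3, limma 3.58.1) with TMM factors and the quasi-likelihood test, without covariates, in 12 contrasts. FDR values are Benjamini-Hochberg adjusted over all tested sites, and a site or gene was called at an FDR under 0.01. CPM values use the TMM library sizes. Counts were also summed per annotated gene and tested likewise. The common biological coefficient of variation was 0.0817. Library totals of 16140029 to 44472230 limit precision at weak sites, and reads without molecular identifiers are not independent molecules. The steps were tested on simulated data.

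Named in the text are the 12 largest falls and 8 largest rises, the smallest FDR values of the 3 direct contrasts between silenced groups (up to 6, 4 and 4, of which 1 is not reported here), the 15 genes with the largest changes of the summed count, and all genes by counts. The sum of EPHA3, the start sites given singly and the named genes of the other lists were chosen after their values were seen. The members, families, gene lists and naming rule were chosen with earlier results of these data known. Motifs were searched on both strands of GRCh38 in the central 300 bases of each site. Alternatives were other scaling factors (DESeq2 size factors, library totals, promoter sites, abundance-trended offsets), DESeq2 1.42.0, no filter, a replicate block, thinning to the smallest total, only the groups compared, a log2 change of at least 1, only sites within 100000 bases, sums without promoter sites, and each library left out. Libraries were not paired by replicate number in the main fit. The deviations of same-numbered libraries correlated at -0.16 to 0.305 (median 0.005, 63 pairs, 4 of them above 0.1). A batch shared by only some of the libraries was not tested.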

Additional observations from a re-analysis of the deposited data

Results flagged for a closer look

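The results in question are 9 sites at which silenced groups differed in a direct edgeR test of one against the other, rather than against Control. Between ARID1A and ARID1B silencing, the log2 difference was -0.88 at EPHA4, -0.78 at SEMA3C and -1.03 at the PLXNA2 site upstream of its start. It was -0.85 at PLXNC1 and -0.82 at SEMA3D. Accessibility was thus lower with ARID1A than with ARID1B silenced at each, although at SEMA3C ARID1A silencing was not called against Control. Between shARID1A/B.2.3 and shARID1A/B.4.2 it was -1.51 at UNC5C, -1.35 at ROBO1, 2.08 at SEMA6D and 0.82 at SEMA3A. These were picked as the sites with the smallest FDR, which favours large values. Single libraries were not examined for outliers in this way, because each group holds 3.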

How the results depend on the processing

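Counts of called sites depended most on the call rule. With a log2 change of at least 1 required as well, 161 sites were called after combined silencing, 208 with shARID1A/B.2.3, 142 with shARID1A/B.4.2, 42 with ARID1A and 24 with ARID1B silencing, 45, 61, 25 and 76 with shARID1A.2, shARID1A.4, shARID1B.2 and shARID1B.3, 12 for combined minus single, 16 for ARID1A minus ARID1B, 31 between the combinations, and 0 summed genes. Within 100000 bases of the start site the counts were, in the same order, 205, 206, 156, 111, 66, 94, 95, 48, 99, 121, 64 and 66, with fewer sites counted. Under neither of these rules were the calls over all tested sites counted. Factors from promoter sites gave 461 calls for shARID1A/B.4.2 and 271 for shARID1A.4, and DESeq2 gave 57 for shARID1B.2. The causes of these last 3 changes were not tested. With factors from promoter sites combined silencing had 502 lower and 6 higher sites, beside 56825 and 2601 over all 357029 tested sites. Leaving out 1 library gave 321 to 390 calls for combined silencing, and for shARID1B.2 55 (without its replicate 1) to 95, with 58 without its replicate 3. The replicate block gave 399 calls after combined silencing (349 lower and 50 higher), and moved no count of calls by over 1.5 times. Of 33 values at named sites none changed direction and 7, all rises, missed the threshold in at least 1 alternative. All falls and direct differences at named sites kept their call in every alternative run. Of 14 called start sites, 2 kept the call with factors from promoter sites and 11 with DESeq2.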
